A study of Papio anubis with 6 samples.

Results

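The nucleosome remodelling and deacetylase complex, NuRD, was described here through 10 of its subunit genes, CHD4, CHD3, MTA1, MTA2, MTA3, RBBP7, GATAD2A, GATAD2B, MBD2 and MBD3. They were found by gene name among the 39023 gene rows of each of the 2 deposited tables, and all 10 had a level in both. NuRD joins 2 chromatin activities, an ATPase of the CHD family that moves nucleosomes and the histone deacetylases HDAC1 and HDAC2, and it is a corepressor that DNA-binding proteins bring to their targets. In red cell precursors it is known as a partner of the γ-globin repressors BCL11A and ZBTB7A and of ZFPM1 (FOG1), the cofactor of GATA1. A form of the complex that holds MBD2 is also known to be needed for γ-globin silencing.

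RNA came from CD34-CD105+CD117+bRBC+ bone marrow cells of baboons (Papio anubis), a sorted subpopulation of mainly proerythroblasts, in 3 groups of 2 samples. The control samples were from 2 untreated animals. The short-term samples were from the same 2 animals after 3 d of RN-1, an inhibitor of the histone demethylase LSD1, at 0.25 mg/kg/d, and the long-term samples were from 2 other animals given 0.25 mg/kg/d on 5 d of each week for more than 265 d, so that long-term treatment and animal cannot be told apart. Libraries were read from the poly(A) end with 1 fragment for each transcript, so that transcript length does not enter a level directly. Levels of different genes are set side by side on that basis, and whether the annotated ends took in the reads of each gene equally was not tested. Each level below is the deposited level of a table, in log2 CPM (counts scaled to the size of the library) or in CPM as its antilog. It was taken as the mean over 4 libraries, because the column name names both groups of the table. On that reading the short-term table pools control and short-term libraries, and the long-term table pools the same controls with long-term libraries. A pooled mean has no SD, and it does not separate treated from control samples. The comparisons of RN-1 with control are the authors' own fold changes and p-values and were not used here, and none is given for the subunits. Depth per library was not given by the columns used. In sorted bulk RNA, fewer cells of a type and less RNA per cell cannot be told apart.

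Erythroid genes were at high mean levels. All 10 erythroid and sort markers had levels between 56.5 and 1421 CPM in the short-term table and between 61.1 and 1425 CPM in the long-term table, with the transferrin receptor TFRC at 1272 and 1290 CPM and KIT (CD117) at 228 and 220.5 CPM. CD34, which the sort excludes, was listed with no level in either table. Of the markers of other cell types, those of monocytes and macrophages summed to 0.97 CPM in the short-term table and 9.33 CPM in the long-term table (3 and 4 of 6 genes with a level), and those of mast cells and basophils to 0.65 and 22.7 CPM (2 of 4 genes in both tables). Granulocyte markers summed to 0.16 and 2.4 CPM (1 of 4 genes with a level in both tables), and lymphocyte markers to 0.12 and 0.55 CPM (1 of 5 genes). No megakaryocyte marker had a level in the short-term table, and 3 of 4 genes summed to 4.14 CPM in the long-term table. Each single marker of these lists that had a short-term level was below the lowest level of any gene in the long-term table, 0.55 CPM. The size of a difference between the sums can therefore not be read. In the long-term table ENPP3 (13.3 CPM), HDC (9.42 CPM) and CD163 (3.93 CPM) nevertheless lay well above that lowest level. Their short-term levels were 0.477, 0.177 and 0.173 CPM. C1QC (2.86 CPM), S100A9 (2.4 CPM), GP9 (2.27 CPM), C1QA (1.79 CPM) and ITGA2B (1.04 CPM) were also above that lowest level. C1QC, S100A9 and C1QA had short-term levels of 0.447, 0.156 and 0.347 CPM, and GP9 and ITGA2B had none. PPBP (0.831 CPM), CSF1R (0.756 CPM) and MS4A1 (0.55 CPM) were at or near the lowest long-term level.

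NuRD subunits were among the more abundant transcripts of the proerythroblasts, except for MTA3 and MBD3. The median over the 10 subunits was 6.87 log2 CPM in the short-term table and 6.83 in the long-term table, beside medians of 2.85 and 2.81 over the 16353 and 17940 genes with a level. Together they held 1795 and 1805 CPM. The highest was CHD4, at 9.06 and 9.16 log2 CPM, above 98.4% and 98.6% of genes. The lowest was MTA3, at 2.46 and 2.90 log2 CPM, above 47.3% and 50.8% of genes. A step of 2.95 log2 in the short-term table and 3.22 in the long-term table separated the upper 8 subunits, which all lay at 6.15 log2 CPM or higher, from MBD3 and MTA3.

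**Figure D1:**
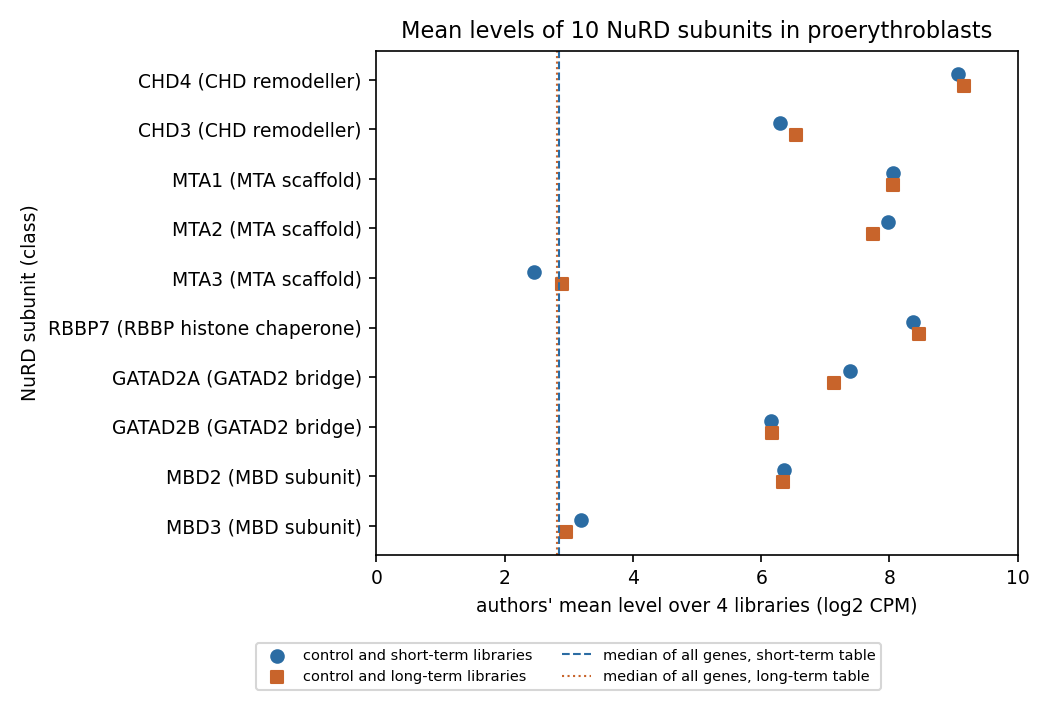
Mean level of each NuRD subunit in log2 CPM (horizontal axis), with a circle for the mean over control and short-term libraries and a square for the mean over control and long-term libraries; vertical lines mark the median of all genes in each table (2.85 and 2.81), and no error can be drawn for a pooled mean. 8 subunits lie at 6.15 or higher, and MBD3 and MTA3 lie near the medians.

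Transcripts of the remodelling ATPases were mainly those of CHD4. CHD4, the usual motor of the complex, had a mean of 535 CPM in the short-term and 572 CPM in the long-term table. Its paralog CHD3 (Mi-2α), which takes the same place in the complex, had 78.5 and 93.0 CPM. The CHD4 level was thus 6.81 and 6.15 times that of CHD3, and CHD4 made up 87.2% and 85.9% of the summed CHD level. CHD5, an ATPase known mainly from neurons and testis, had no level in the short-term table and 0.619 CPM in the long-term table, close to the lowest level in that table, 0.55 CPM.

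The scaffold was shared by MTA1 and MTA2. MTA proteins form the core of the complex, where they bind the deacetylases and the RBBP chaperones. MTA1 had 265 CPM in both tables, and MTA2 had 251 CPM in the short-term and 214 CPM in the long-term table. They differed by 0.08 and 0.31 log2. For scale, the SD over genes of the difference between the tables was 0.35. It was 0.19 over genes at 5 log2 CPM or higher, and the second difference was more than this smaller SD. Neither SD measures the error of a difference between genes within a table. MTA3, the third paralog, had 5.50 and 7.47 CPM, which was 1.05% and 1.54% of the summed MTA level. MTA1 was 48.2 and 35.5 times as abundant as MTA3.

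The histone chaperones were RBBP7 (RbAp46), the second most abundant of the 10 subunits, and its close paralog RBBP4 (RbAp48), which is outside the 10. Both bind histones and are also found in other complexes, among them PRC2 and SIN3. RBBP7 had 331 and 353 CPM, and RBBP4 had 245 and 243 CPM, so that RBBP7 made up 57.5% and 59.3% of their sum.

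GATAD2A and GATAD2B (p66α and p66β) link the MBD subunit to the CHD ATPase, and a complex holds one or the other. GATAD2A was the more abundant in both tables, with 167 and 140 CPM, against 71.0 and 72.0 CPM for GATAD2B. The difference was 1.23 log2 in the short-term and 0.96 log2 in the long-term table, and GATAD2A made up 70.1% and 66.0% of the pair.

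MBD2 and MBD3 also exclude each other from the complex. MBD2 reads methylated CpG, whereas mammalian MBD3 has largely lost that binding. The MBD2 level was 8.94 times that of MBD3 in the short-term table and 10.5 times in the long-term table. MBD2 had 81.9 and 81.4 CPM, and MBD3 had 9.16 and 7.75 CPM. MBD2 thus made up 89.9% and 91.3% of the pair. MBD3 was also the only one of the 10 symbols that the RefSeq gene table of another baboon assembly, Panubis1.0, did not hold, and whether its annotated end took in all its reads was not tested.

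Set against each other, the subunit classes were unequal. Summed over paralogs, the CHD class had 613 and 666 CPM, the RBBP class with RBBP4 had 576 and 596 CPM, and the MTA class had 522 and 486 CPM. The GATAD2 class had 238 and 212 CPM, 0.455 and 0.436 times the MTA class. The MBD class was the lowest, with 91.1 and 89.1 CPM, 0.174 and 0.183 times the MTA class. These are transcript levels, and they do not give the number of each protein in the complex.

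**Figure D2:**
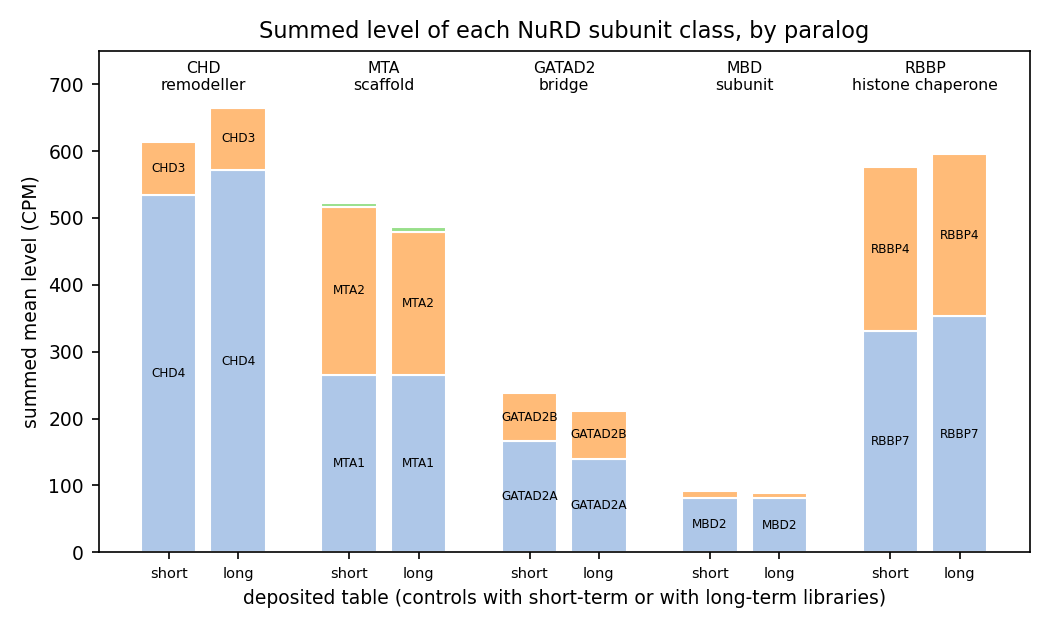
Summed mean level in CPM (vertical axis, from 0) of 5 NuRD subunit classes in the short-term and the long-term table, with each bar divided by paralog; the thin top parts without a name are MTA3 in the MTA class and MBD3 in the MBD class. The MBD class reaches 91.1 and 89.1 CPM, against 613 and 666 CPM for the CHD class.

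Among all genes of the short-term table, RBBP7 lay above 96.9%, MTA1 above 95.9%, MTA2 above 95.6% and GATAD2A above 93.0%. MBD2 lay above 85.3%, CHD3 above 84.6% and GATAD2B above 83.1%. MBD3 lay above 53.0% of genes. Of the 9 pairs of neighbours in the order of levels, 4 in each table lay closer than the SD of 0.35 log2 between the tables. MBD2, CHD3 and GATAD2B were neighbours of this kind in both tables, and so were MTA1 and MTA2. At the SD of 0.19 over genes at 5 log2 CPM or higher, MTA1 and MTA2 were this close in the short-term table alone. MBD2 and CHD3 changed places between the tables. RBBP7 and MTA1 lay 0.32 log2 apart in the short-term table, under the SD of 0.35 but not under that of 0.19, and MBD3 and MTA3 lay 0.05 log2 apart in the long-term table. With no values per sample, these orders carry no test, and neither SD measures the error of a gap within a table.

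**Figure D3:**
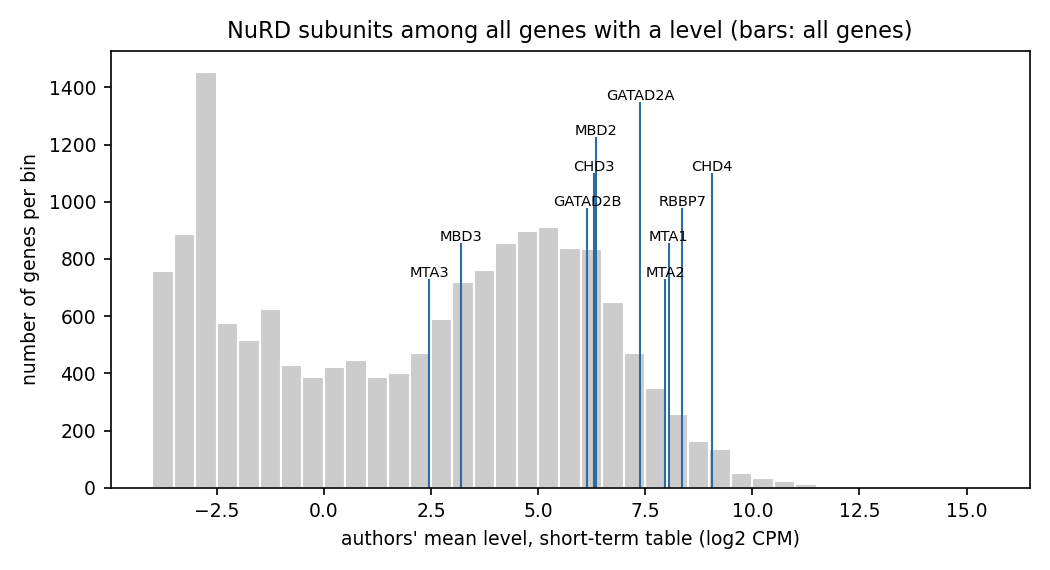
Number of genes per bin of mean level in the short-term table (grey bars, bins of log2 CPM on the horizontal axis), with a vertical line at the level of each NuRD subunit; the height of a line only makes room for its name. MTA3 and MBD3 lie near the median of all genes, 2.85, and the other 8 lie in the upper part of the distribution.

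Factors that are known to bring NuRD to its targets had the following mean levels. BCL11A had 588 and 564 CPM, close to CHD4, and ZBTB7A had 295 and 302 CPM. GATA1, the main erythroid transcription factor, had 150 and 163 CPM, its cofactor ZFPM1 55.4 and 54.3 CPM, and IKZF1 (Ikaros) 185 and 182 CPM. LSD1 (KDM1A), the target of RN-1, which has also been found with NuRD, had 113 and 118 CPM. SALL4, which carries the same NuRD-binding motif as BCL11A and ZFPM1, was near the lowest value in both tables, with 0.087 and 0.620 CPM. Of the NuRD subunits outside the 10, HDAC2 had 195 and 206 CPM and the small accessory subunit CDK2AP1 114 and 106 CPM. HDAC1 was not analysed here.

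Between the tables, the mean levels of the subunits differed by between -0.25 and 0.44 log2. Since both means were taken to contain the same 2 controls, a difference between long-term and short-term libraries enters these values only in part. A small value is therefore not a measure of how alike those libraries were. The mean was higher in the long-term table for 5 subunits and lower for 5, with a median difference of 0.01 log2, against a median of 0.08 over the 9019 genes at 2 log2 CPM or higher in both tables. The differences of MTA1, MBD2, GATAD2B, RBBP7 and CHD4 were all under 0.1 log2 in size, from MTA1 at 0.00 to CHD4 at 0.10. CHD3 was 0.24 log2 higher in the long-term table, within the 5th to 95th percentile of the 1489 genes of its level (-0.23 to 0.35). MTA3 was 0.44 log2 higher, close to the median of 0.47 over the 1214 genes of its level. MBD3 was lower by a difference of -0.24 log2, beside a median of 0.24 over the 1528 genes of its level. It lay within their range (-0.31 to 1.16), nearer its lower end.

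All 10 subunits lay within the 5th to 95th percentile of all genes at 2 log2 CPM or higher (-0.28 to 0.75). Against genes of their own level, 8 lay within the corresponding range, which holds 90% of genes by construction, and MTA2 and GATAD2A lay below it. MTA2 went from 7.97 to 7.74 log2 CPM, a difference of -0.23, and GATAD2A from 7.38 to 7.13 log2 CPM, a difference of -0.25. For the 821 genes with a mean between 7 and 8 log2 CPM, the 5th and 95th percentiles were -0.19 and 0.30, with a median of 0.02. Their paralogs MTA1 and GATAD2B differed by 0.00 and 0.02 log2. Of the other genes of the complex, RBBP4 differed by -0.01, HDAC2 by 0.08 and CDK2AP1 by -0.11 log2. The recruiting factors differed by between -0.06 (BCL11A) and 0.12 (GATA1), apart from SALL4, which was too low in both tables to be compared. Both means were taken to contain the same 2 controls. The short-term samples came from the control animals and the long-term samples from others, so that regimen, animal and the separate scaling of the tables cannot be told apart in these differences. The part that other cell types have in them was not tested.

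**Figure D4:**
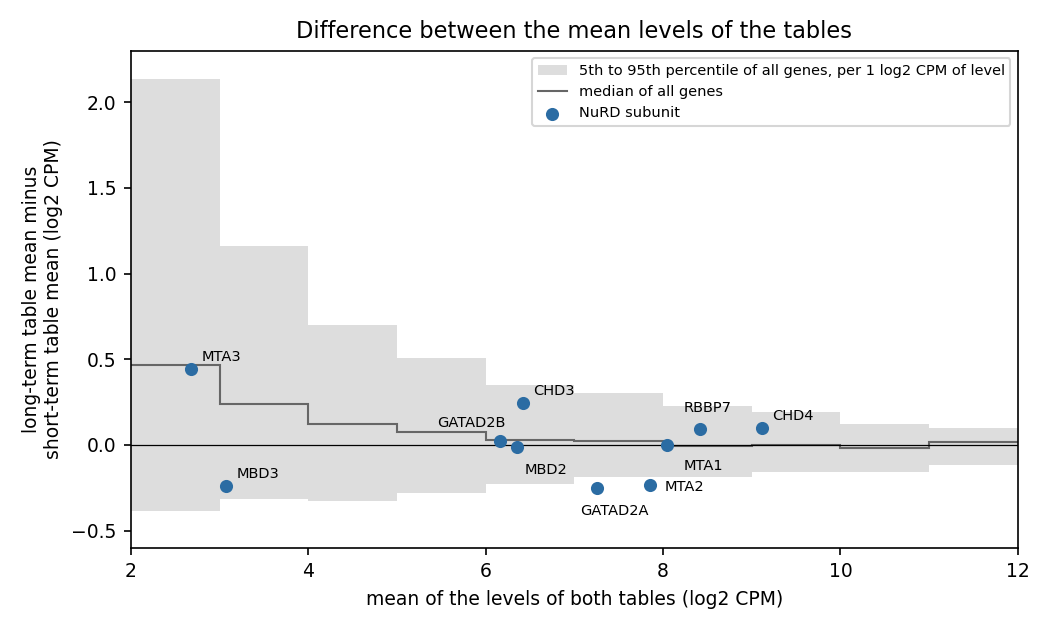
Mean level in the long-term table minus that in the short-term table (vertical axis, log2) against the mean of both (horizontal axis, log2 CPM) for the 10 NuRD subunits (points), with the 5th to 95th percentile (grey) and median (line) of all genes in steps of 1 log2 CPM. MTA2 (-0.23) and GATAD2A (-0.25) lie below the grey range, and the other 8 lie within it, where 90% of all genes lie by construction.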

How the data were processed

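Alignment by the authors was to Panu_2.0 with BWA MEM, gene counts came from featureCounts, and levels and comparisons came from edgeR as run by the authors. Tool versions, and how libraries were averaged into a mean level, are not stated in the sources read. The 2 deposited tables hold the authors' log2 fold changes, mean log2 CPM, p-values, q-values, marks of direction and a pathway list. Only the mean level was used, since the other columns are the authors' own comparisons. Its column name names both groups of a table and no sample, so it was taken as a mean over their 4 libraries. Columns with a value per sample numbered 0. The tests planned for values per sample were therefore not run. The base of the logarithm was taken as 2 because the antilogs summed to 970106 (short-term) and 1010153 (long-term), near the scale of CPM. The lowest levels were -3.58 and -0.86 log2 CPM, so the size of a difference between the tables was not read from values near them. A name that occurred more than once was left out (2 rows in each table).

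From these means the antilog, the percent of genes with a lower level, sums and shares over paralogs, and differences between paralogs and between the tables were computed. Python 3.11.15, pandas 2.3.3, numpy 2.4.6 and matplotlib 3.10.9 were used. Only the percent of genes with a lower level, and the median and SD of the difference between the tables, were tested on simulated data. Genes with a mean of at least 2 log2 CPM in both tables gave the SD between the tables, 0.35 log2, which was 0.19 log2 for genes of at least 5 log2 CPM. The tables hold no replicate values, so no test was made and no interval is given. The members, the other genes of the complex, the recruiting factors and the markers were chosen with earlier results of these data known, and all of them are named or counted. RefSeq's table of Panubis1.0 held 9 of the 10 symbols (not MBD3) and was used for names only. Sequences were not used here. Alternatives were the other table, other backgrounds and centring.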

Additional observations from a re-analysis of the deposited data

How the results depend on the processing

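Values were compared with the SD of 0.35 log2 between the tables. Read from the long-term table, the level of MTA3 was 2.90 log2 CPM (50.8% of genes lower), and its differences from MTA1 and MTA2 were 5.15 and 4.84 log2. The other 9 levels and 5 paralog differences moved by less than that SD, and no paralog order turned. The SD was 0.19 over genes at 5 log2 CPM or higher. MTA2 (-0.23), GATAD2A (-0.25) and CHD3 (0.24) moved by more than this smaller SD. So did MTA1 minus MTA2 (0.08 to 0.31) and GATAD2A minus GATAD2B (1.23 to 0.96). Among genes at 0 log2 CPM or higher, the percent of genes with a lower level was 97.5 for CHD4, 95.3 for RBBP7, 93.7 for MTA1, 93.2 for MTA2, 89.3 for GATAD2A, 77.6 for MBD2, 76.6 for CHD3, 74.3 for GATAD2B, 28.2 for MBD3 and 19.6 for MTA3. Among names that do not begin with LOC it was 81.4 for MBD2, 80.5 for CHD3, 78.6 for GATAD2B, 41.7 for MBD3 and 35.7 for MTA3. These backgrounds hold fewer low genes by construction. Centring on the median moved each difference between the tables by 0.08 log2 (genes at 2 or higher) or 0.03 log2 (genes at 5 or higher). No paired analysis was possible because the tables give no values per sample, and for the same reason leaving out a replicate, other size factors and a count filter were not run.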
